A study of Mus musculus with 4 samples.

Results

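The genes described here sit on either side of the epithelial to mesenchymal transition (EMT), and their levels were compared between WT and Haspin-KO mouse embryonic stem cells (mESCs). There were 10 of them, taken by symbol from a deposited table of 55401 genes. They were the transcription factors Twist1, Twist2, Snai1, Snai2, Prrx1, Zeb1 and Zeb2, the mesenchymal filament gene Vim, and the epithelial genes Epcam and Esrp1. The choice was made by symbol, with earlier results of these data known, and each symbol occurred once in the table. RNA-seq was performed on 2 libraries of WT E14 mESCs and 2 libraries of Haspin-KO E14 mESCs, E14 being an established mouse embryonic stem cell line. The paper's methods describe culture of its mESCs with serum, LIF and 2i (inhibitors of MEK and GSK3), and the sample titles name no treatment. Haspin is a kinase that phosphorylates histone H3 at Thr3 in mitosis, and it was knocked out with CRISPR/Cas9 and a pair of gRNAs. The Haspin-KO lines were single clones picked after puromycin selection, and the labels do not say which line each library came from. The paper's methods state that the mESCs were passaged on mouse embryonic fibroblasts (MEFs) and kept on gelatin for assays, and do not say which of these the RNA came from.

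In EMT, cells loosen their junctions and take on a migratory, matrix-producing state. Snai1, Snai2, Zeb1 and Zeb2 are zinc finger repressors that bind E-box motifs in promoters of epithelial genes such as Cdh1. Twist1 and Twist2 are basic helix-loop-helix factors, and Prrx1 is a homeobox factor of mesenchyme in limb and face. Epcam is a surface adhesion molecule carried by epithelia and by pluripotent cells, and Esrp1 directs epithelial patterns of splicing. In the deposited annotation, 5 of the 10 genes (Prrx1, Snai1, Twist1, Twist2 and Zeb1) carry the term for negative regulation of transcription by RNA polymerase II. mESCs grow as compact colonies held together by E-cadherin, the product of Cdh1.

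The read counts summed to between 14207828 and 21834847 per library. Haspin, the targeted gene, had 875 and 619 counts in WT and 149 and 209 counts in Haspin-KO, so it was lower but still counted in the knockout. The libraries carried the markers of pluripotent cells, with Pou5f1, the gene for Oct4, between 933.4 and 1072 CPM (counts scaled to a common library size after TMM normalisation) in all 4 libraries. Of 8 such markers, 0 differed by the call used here, against 0.828% of all genes tested. In a list of 9 fibroblast markers, chosen with earlier results of these data known, the summed level was 108.9 and 83.0 CPM in WT and 11.8 and 9.74 CPM in Haspin-KO. The largest parts of the sum in WT were Col1a1, with 48.7 and 33.2 CPM, and Col1a2, with 29.5 and 24.2 CPM. The labels do not state that the libraries came from separate cultures, so p-values measure the spread between these libraries only.

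E-boxes of the form CAGGTG or CACCTG were searched for in the RefSeq promoters of GRCm38.p6 (250 bases before to 50 bases after a start site), since the Snai and Zeb factors bind such motifs. These 2 words are each other's reverse complement, so both strands were covered. Of the 10 genes, 7 are covered here, with 10 promoters between them. Promoters of Snai2, Zeb1 and Esrp1 are not covered, so nothing is said of E-boxes in them. At least 1 E-box was present in 20.2% of all 32851 promoters, and at least 2 in 2.88%. The promoter of Epcam held 2, starting 187 and 19 bases before the start site, and that of Snai1 held 1, starting 126 bases before it. The other 8 promoters, those of Prrx1, Vim, Twist1, Twist2 and 4 of Zeb2, held 0. Shown are the promoters of Epcam (chr17:87635729-87636028, plus strand) and Snai1 (chr2:167537945-167538244, plus strand), which held the E-boxes, and that of Prrx1 (chr1:163313601-163313900, minus strand), the gene that fell in Haspin-KO cells, written 5′ to 3′ on the strand of the gene with each E-box in capitals:
Epcam: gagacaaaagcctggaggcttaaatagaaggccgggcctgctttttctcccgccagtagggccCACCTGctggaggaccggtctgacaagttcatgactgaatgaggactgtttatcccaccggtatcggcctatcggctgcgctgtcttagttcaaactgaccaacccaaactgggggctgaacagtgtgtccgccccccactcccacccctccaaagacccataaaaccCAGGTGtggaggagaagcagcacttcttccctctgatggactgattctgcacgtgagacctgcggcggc
Snai1: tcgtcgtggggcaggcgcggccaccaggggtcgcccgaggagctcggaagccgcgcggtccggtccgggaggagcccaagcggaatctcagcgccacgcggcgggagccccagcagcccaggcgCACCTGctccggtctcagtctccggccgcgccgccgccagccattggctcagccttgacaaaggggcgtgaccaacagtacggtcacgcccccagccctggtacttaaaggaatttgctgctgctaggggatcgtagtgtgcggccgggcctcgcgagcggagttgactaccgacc
Prrx1: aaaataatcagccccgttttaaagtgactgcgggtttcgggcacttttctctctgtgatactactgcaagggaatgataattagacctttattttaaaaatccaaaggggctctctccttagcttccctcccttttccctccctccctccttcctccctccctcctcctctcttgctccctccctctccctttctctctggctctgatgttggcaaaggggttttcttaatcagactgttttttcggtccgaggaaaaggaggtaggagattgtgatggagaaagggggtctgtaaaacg
A motif in these windows is a description and not a measured binding site. The Prrx1 window had 6 CpG and a GC content of 47.7%, near the medians of 7 and 52.7% over all promoters. The windows of Snai1, Twist1 and Twist2 were richer in CpG, with 34, 27 and 25.

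Per kilobase of exons, the 10 genes spanned more than 3 orders of magnitude in these cells. Vim was highest, with a mean over the 4 libraries of 57.0 CPM per kilobase, higher than 94.5% of the genes tested. Epcam followed with 16.3 CPM per kilobase, higher than 77.1% of them. Zeb1 (3.16), Twist1 (2.65) and Snai1 (2.48) formed the next group, and the ranges of neighbours in this order overlapped over the libraries. Snai2 lay at 0.554 CPM per kilobase, apart from Snai1 above and Esrp1 below. Esrp1 (0.142), Prrx1 (0.0849) and Zeb2 (0.0784) again had overlapping ranges, and Twist2 (0.0172) was lowest. Among the repressors, Zeb1 and Snai1 were thus each more abundant than their paralogues Zeb2 and Snai2, and Twist1 more than Twist2, in all 4 libraries.

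**Figure D1:**
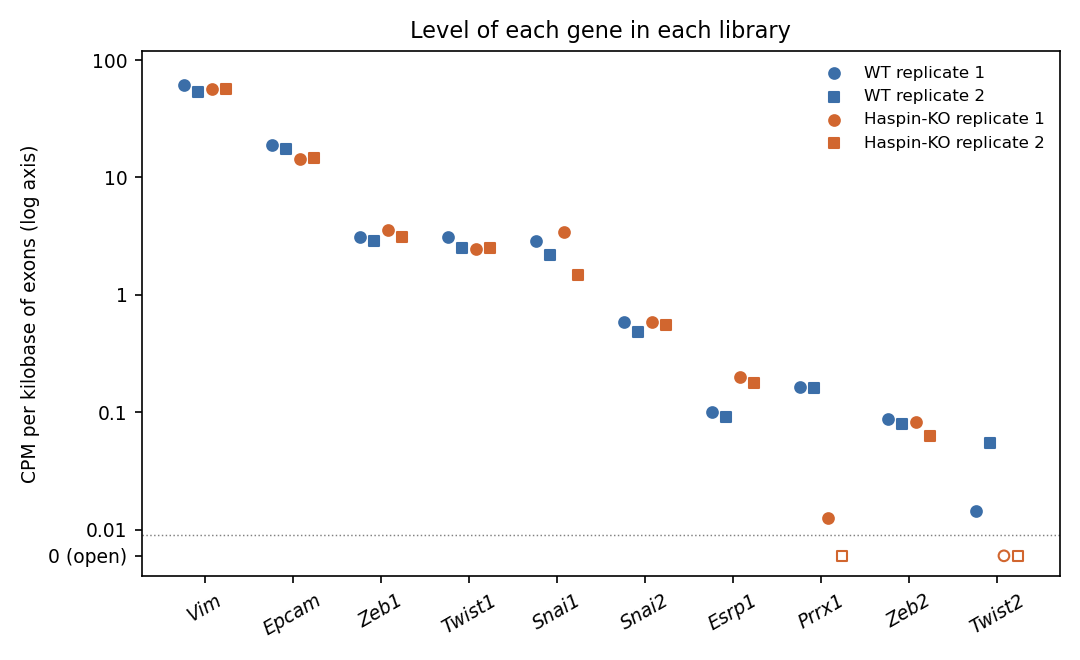
Level of each of the 10 genes in CPM per kilobase of exons (log axis), ordered by their mean, with 1 point per library (blue, WT; orange, Haspin-KO; circles, replicate 1; squares, replicate 2). Open symbols under the dotted line stand for 0 counts. Prrx1, the gene called lower, had Haspin-KO points at 0.0126 and 0 against WT points at 0.165 and 0.162 CPM per kilobase. Haspin-KO points also lay below the WT points for Twist1 and Epcam, and above them for Esrp1. For Twist2 the Haspin-KO points lay at 0 counts against 1 and 3 counts in WT, and Twist2 was not tested.

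The comparison of Haspin-KO with WT asked which genes change when Haspin is lost. Genes were called at an adjusted p under 0.05 in edgeR's quasi-likelihood test (Benjamini-Hochberg over the 15580 genes tested) and a fold change over 2, and 0.828% of the genes tested were called, 0.501% lower and 0.327% higher. Of the 10 genes, 9 passed the filter on low counts, 1 of these was called lower (Prrx1) and 0 were called higher. The groups did not overlap for Prrx1, Twist1 and Epcam, with Haspin-KO below WT, and for Esrp1, with Haspin-KO above WT. Among all genes tested, 26.9% had both Haspin-KO libraries below both WT libraries and 25.3% had both above, so lack of overlap was common at this number of libraries.

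Prrx1 (ENSMUSG00000026586, chromosome 1 of mm10, 163245119 to 163313710) fell in Haspin-KO cells. It had 40 and 31 counts in WT and 2 and 0 counts in Haspin-KO. In CPM these were 1.83 and 1.79 in WT and 0.139 and 0 in Haspin-KO, with means of 1.81 ± 0.0303 and 0.0696 ± 0.0985 (SD, n = 2 libraries each). The WT libraries were nearly equal, and the Haspin-KO libraries were both under the floor of 3 counts below which a level was not read. Against that floor, the level of Prrx1 in Haspin-KO was lower by at least 8.64-fold. This and the other folds given as "at least" compare the mean of WT with the floor. They leave out the error of the WT counts and are not limits of an interval. The fit gave a log2 fold change of -4.56 ± 0.69 (standard error) and an adjusted p of 0.0130 in edgeR, where the size of the change depends on how counts of 0 are handled. In bulk RNA, fewer cells of a type and less RNA per cell cannot be told apart. The summed level of the fibroblast markers, given above, was also lower in Haspin-KO. All 6 tested markers of that list had a fitted log2 fold change below 0. Of these, 4 were called lower, against 0.501% of all genes tested. The part of these markers in the result was not tested. Without WT replicate 1 the adjusted p of Prrx1 was 0.0786, and without WT replicate 2 it was 0.0691, at log2 fold changes of -4.53 and -4.57. Without Haspin-KO replicate 1 the log2 fold change was -8.02 (adjusted p = 1.1e-05), and without Haspin-KO replicate 2 it was -3.64 (adjusted p = 0.00265). In each of these edgeR fits the lone library was assumed to vary like those of the other group. DESeq2 gave Prrx1 no adjusted p, at an unadjusted p of 0.000193 and a log2 fold change of -4.70. The study lists Prrx1 among its changed genes, from these same libraries, so its presence here is not independent of them.

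The genes whose pattern over the 4 libraries was nearest to that of Prrx1 were Cdh11, Ltbp2 and Csf1. Likeness was the root mean square difference of log2 CPM, with a prior count of 2 added, centred on each gene's mean. This difference was 0.202 for Cdh11, 0.264 for Ltbp2 and 0.267 for Csf1. The prior count shrinks the changes of genes with few counts, such as Prrx1. Cdh11, a cadherin of mesenchymal cells, had 1.92 and 1.56 CPM in WT and 0.0696 and 0 in Haspin-KO, and was at least 8.31-fold lower. Ltbp2, a protein of elastic microfibrils, had 21.7 and 13.8 CPM in WT and 2.02 and 1.19 in Haspin-KO. Csf1, a growth factor of macrophages, had 16.8 and 11.4 CPM in WT and 2.16 and 1.05 in Haspin-KO. All 3 were called lower, with fitted log2 fold changes of -5.38, -3.47 and -3.14, and their choice by likeness to a gene that fell fixes that direction.

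Twist1 and Twist2 stood far apart in level. Twist1 (chromosome 12, 33957671 to 33959829) had 5.04 and 4.10 CPM in WT and 4.04 and 4.06 in Haspin-KO. WT replicate 1 was the highest, and WT replicate 2 lay just above both Haspin-KO libraries. The log2 fold change of Twist1 was -0.18 ± 0.23 (standard error), with a 95% interval from -0.69 to 0.33 and an adjusted p of 0.697 in edgeR. Twist2 (chromosome 1, 91801461 to 91848028) had 1 and 3 counts in WT and 0 and 0 in Haspin-KO. All 4 values were at or under the floor, so Twist2 was not tested and no fold is given. The exons of Twist2 also overlap Gm29100 on the opposite strand over 46.5% of their length, and the strand setting of the counting is not stated.

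Snai1 and Snai2 were both detected in every library, and neither was called. Snai1 (chromosome 2, 167538195 to 167542814) had 4.62 and 3.52 CPM in WT and 5.57 and 2.38 in Haspin-KO. The Haspin-KO libraries were the highest and the lowest of the 4, on either side of both WT libraries. The log2 fold change of Snai1 was -0.04 ± 0.36 (standard error), with a 95% interval from -0.84 to 0.76 and an adjusted p of 0.965 in edgeR. Without Haspin-KO replicate 2 this was 0.44, without Haspin-KO replicate 1 it was -0.78, and without WT replicate 1 it was 0.17, so its sign depended on the libraries kept. Snai2 (chromosome 16, 14705852 to 14709385) had 1.19 and 0.981 CPM in WT and 1.18 and 1.12 in Haspin-KO, and both Haspin-KO libraries lay between the WT libraries. For Snai2 it was 0.08 ± 0.37, with a 95% interval from -0.76 to 0.91 and an adjusted p of 0.935.

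Zeb1 and Zeb2, which repress Cdh1 and are themselves repressed by the miR-200 family, were not called either. Zeb1 (chromosome 18, 5591860 to 5775467) had 32.1 and 29.5 CPM in WT and 36.3 and 32.0 in Haspin-KO, and the groups overlapped. The log2 fold change of Zeb1 was 0.15 ± 0.11 (standard error, adjusted p = 0.476 in edgeR), and its 95% interval, from -0.099 to 0.40, lay within a fold of 2 in either direction. Zeb2 (chromosome 2, 44983632 to 45117395) had 1.79 and 1.62 CPM in WT and 1.67 and 1.26 in Haspin-KO. These values rest on 18 to 39 counts, and the 95% interval of its log2 fold change ran from -0.97 to 0.54 around -0.22 (adjusted p = 0.760). The rows of Mir200a, Mir200b, Mir200c, Mir141, Mir429 and Mir205 had 0 counts in all 4 libraries, which allows up to 0.137 to 0.210 CPM at a floor of 3 counts. They count reads on hairpin genes in mRNA libraries, so mature miRNAs were not measured.

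Vim, the filament protein most often used to mark mesenchyme, was high in both groups. Vim (chromosome 2, 13573927 to 13582826) had 291.8 and 251.7 CPM in WT and 267.7 and 269.9 in Haspin-KO, with both Haspin-KO libraries between the WT libraries. The log2 fold change of Vim was -0.02 ± 0.083 (standard error), at an adjusted p of 0.937 in edgeR. The 95% interval on the linear scale ran from 0.869-fold to 1.12-fold. The interval of Prrx1 on the log2 scale ran from -6.11 to -3.01 and that of Vim from -0.20 to 0.17, and the difference between these genes was not tested.

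Neither of the epithelial genes was called, although the groups did not overlap for either. Epcam (chromosome 17, 87635979 to 87651129) had 41.2 and 38.7 CPM in WT and 31.5 and 32.1 in Haspin-KO, means of 40.0 ± 1.79 and 31.8 ± 0.429 (SD, n = 2 libraries each). The fitted fold was 0.794 (95% interval 0.683 to 0.924), and the adjusted p was 0.102 from edgeR at an unadjusted p of 0.00716. Esrp1 (chromosome 4, 11331933 to 11386783) had 14 and 10 counts in WT and 18 and 16 in Haspin-KO, or 0.641 and 0.577 against 1.25 and 1.12 CPM. The fitted fold of Esrp1 was 1.93 (95% interval 1.03 to 3.63), with an adjusted p of 0.224 from edgeR, and the interval is wide because few reads were counted. Under the 12 settings that tested Epcam and the 9 with an adjusted p for Esrp1, neither changed direction, with log2 fold changes from -0.37 to -0.29 for Epcam and from 0.87 to 1.03 for Esrp1.

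**Figure D2:**
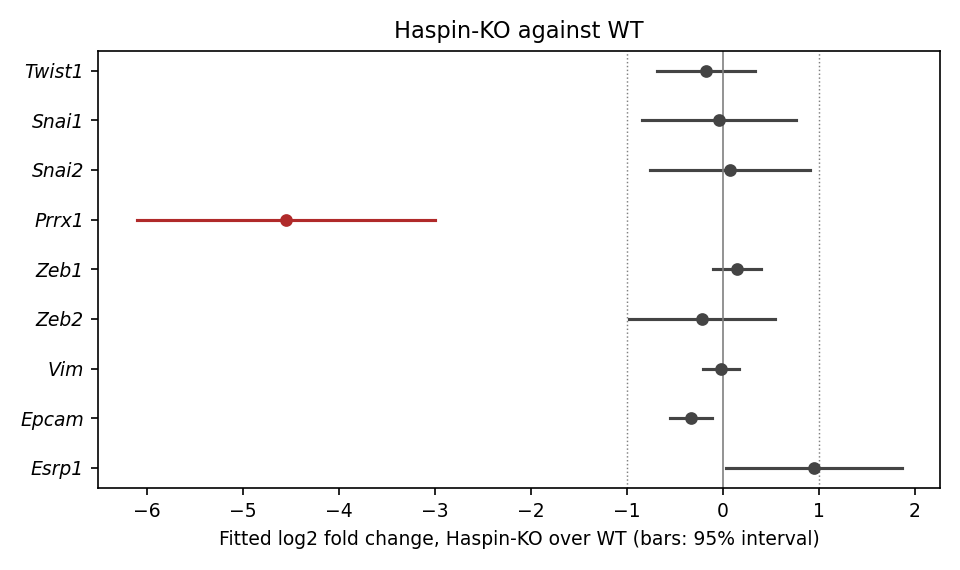
Fitted log2 fold change of Haspin-KO over WT for the 9 genes tested (point) with its 95% interval from edgeR (bar). Dotted lines mark a fold of 2 in either direction, and red marks the gene called. Prrx1 lies at -4.56 and the other 8 genes between -0.33 and 0.95.

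The transcripts of these genes share little sequence with other genes, apart from Twist2. Of all 50-base words in the GENCODE M21 transcripts of each gene, 0 were shared between Twist1 and Twist2, between Snai1 and Snai2 or between Zeb1 and Zeb2. Words shared with any other gene, with reverse complements counted as shared, made up 0.171% for Prrx1 and 0% for Twist1, Snai1, Vim and Epcam. They made up at most 2.26% for the others except Twist2. For Twist2 the share was 45.7%, from Gm29100, which overlaps it on the opposite strand. The start and end of all 10 genes in the deposited table were those of GENCODE M21. Exons of Zeb1, Zeb2 and Esrp1 overlap antisense genes (Gm10125, Zeb2os and Gm26663) over 1.93%, 3.27% and 2.01% of their length.

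None of the other tested transcription factors linked to EMT was called, which is near the 0.828% called of all genes tested. In a list of 13, 11 were tested and 0 were called in either direction by edgeR, with a median log2 fold change of 0.02, against -0.0039 over all genes tested. The smallest p-values were those of Hmga2, an architectural chromatin protein, with 61.4 and 47.1 CPM in WT and 76.4 and 63.2 in Haspin-KO (adjusted p = 0.176), and of Tcf3, with 142.0 and 142.1 CPM in WT and 127.3 and 122.1 in Haspin-KO (adjusted p = 0.190). Prrx2, the paralogue of Prrx1, had 2.33 and 2.42 CPM in WT and 1.88 and 2.94 in Haspin-KO (log2 fold change 0.02, adjusted p = 0.979 from edgeR). Prrx2 was singled out after its values were seen.

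None of the other epithelial genes tested was called, which is near the 0.828% called of all genes tested. Cdh1 had 968.9 and 926.0 CPM in WT and 938.3 and 851.0 in Haspin-KO, and the groups overlapped (log2 fold change -0.08, adjusted p = 0.553 from edgeR). Cdh1 was also named after its values were seen. Of 24 junction and keratin genes, all were tested and 0 were called, with a median log2 fold change of -0.12 and a range from -0.99 to 0.82. Cldn4, a claudin of tight junctions, had 103.9 and 87.6 CPM in WT and 84.3 and 60.3 in Haspin-KO (adjusted p = 0.161). Tjp3, a scaffold of tight junctions, had 7.23 and 7.96 CPM in WT and 6.06 and 4.27 in Haspin-KO (adjusted p = 0.193). Krt19, a keratin of simple epithelia, had 2.29 and 2.13 CPM in WT and 5.36 and 2.45 in Haspin-KO (adjusted p = 0.241), and the higher mean came from Haspin-KO replicate 1. Without Haspin-KO replicate 2, Krt19 had an adjusted p of 0.0105 in edgeR at a log2 fold change of 1.27, and without Haspin-KO replicate 1 these were 0.893 and 0.15, with the spread taken from the WT libraries in both fits. Of 9 epithelial transcription factors, 7 were tested and 0 were called, with a median log2 fold change of 0.06. The smallest p among them was that of Klf4, also a pluripotency factor, with 246.7 and 256.7 CPM in WT and 201.9 and 208.4 in Haspin-KO (adjusted p = 0.060).

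Many of the mesenchymal genes fell. Of 21, 20 were tested, 11 were called lower and 0 higher, against 0.501% called lower of all genes, and the median log2 fold change was -1.84. The list was chosen with earlier results of these data known, so this share is a description and was not tested. Those that fell included Cdh11, Acta2, Tagln, Cd44, Lox, Tnc, Col1a1, Col1a2, Col3a1 and Col5a2, among them genes of collagens, a collagen crosslinking enzyme, a matrix glycoprotein and contractile proteins. Col1a1 had 48.7 and 33.2 CPM in WT and 1.67 and 1.68 in Haspin-KO. Acta2, smooth muscle actin, had 55.6 and 41.3 CPM in WT and 3.06 and 5.95 in Haspin-KO (log2 fold change -3.43, adjusted p = 0.000183 from edgeR). Lox, the crosslinking enzyme, had 55.6 and 37.9 CPM in WT and 0 in both Haspin-KO libraries, at least 223-fold lower. The groups did not overlap for any of the 11 genes, which the call itself made likely. Among all genes tested, 26.9% had both Haspin-KO libraries below both WT libraries. In limma on log2(FPKM + 0.1), which called 0 of all genes tested, the log2 fold changes were -6.60 for Lox, -4.13 for Col1a1 and -3.42 for Acta2, and Cdh11 was not tested. Without WT replicate 1, Cdh11, Tagln and Cd44 were no longer called, and without WT replicate 2, Tagln and Cd44 were not. The adjusted p of Tagln was also 0.0565 in DESeq2 and 0.0561 with library totals as the scale, and Cdh11 had no adjusted p in DESeq2.

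Not all of the mesenchymal list fell. Fn1, fibronectin, had 1535 and 1666 CPM in WT and 1628 and 1618 in Haspin-KO (log2 fold change 0.02, adjusted p = 0.901 from edgeR). Sparc, a matrix glycoprotein, had 243.7 and 207.1 CPM in WT and 244.3 and 211.0 in Haspin-KO, and Cdh2, N-cadherin, had 13.6 and 10.8 CPM in WT and 11.9 and 12.1 in Haspin-KO. Vcan, versican, had 45.0 and 42.9 CPM in WT and 57.6 and 53.9 in Haspin-KO (adjusted p = 0.078). These genes, like Vim, were well above the floor in both groups. Sparc and Cdh2 were named after their values were seen.

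**Figure D3:**
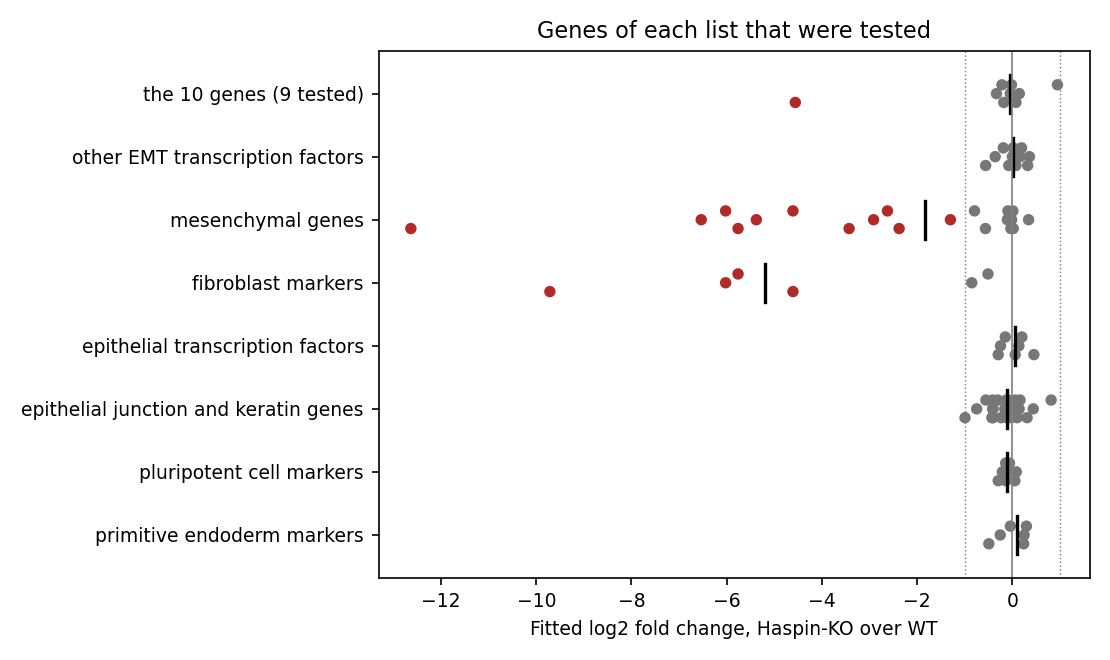
Fitted log2 fold change of Haspin-KO over WT (horizontal axis) for each tested gene of 8 lists, with genes called in red and others in grey. Black bars are list medians and dotted lines a fold of 2. The mesenchymal genes spread from 0.34 down to -12.6, while the 11 other EMT transcription factors lie between -0.56 and 0.36. The value of -12.6 is the fit of Lox, with 0 counts in both Haspin-KO libraries, and its size depends on how counts of 0 are handled.

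Some fibroblast markers fell along with Prrx1 and the matrix genes. Of 9 such markers, 6 were tested and 4 were called lower (Postn, Col1a1, Col1a2 and Col3a1), against 0.501% of all genes. The 3 collagens are also in the mesenchymal list, and the markers were chosen with earlier results of these data known. Postn, periostin, had 7.83 and 4.44 CPM in WT and 0 in both Haspin-KO libraries, at least 29.3-fold lower. Pdgfrb had 13.1 and 10.7 CPM in WT and 6.89 and 6.37 in Haspin-KO. Its adjusted p was 0.0392 in edgeR at a log2 fold change of -0.85, so only the fold threshold kept it from being called. Thy1 had 2.52 and 2.77 CPM in WT and 2.58 and 1.12 in Haspin-KO, and the groups overlapped (log2 fold change -0.51, adjusted p = 0.474 from edgeR). Dcn had 4 and 2 counts in WT and 0 in Haspin-KO, Fap had 1 count in WT replicate 1 and 0 elsewhere, and Lum had 0 in all 4 libraries. Dcn, Fap and Lum were thus at or near 0 in WT also, while Postn was counted in WT and not in Haspin-KO. Feeder MEFs are fibroblasts, and the part of MEF RNA in these differences was not tested.

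No tested marker of other lineages was called, which is near the 0.828% called of all genes tested and says little about these markers. Of 8 primitive endoderm markers, 6 were tested and 0 were called, with a median log2 fold change of 0.10, and of 9 mesoderm and neural crest markers, 5 were tested and 0 were called, with a median of -0.11. T, the Brachyury factor of early mesoderm, had 5.49 and 8.71 CPM in WT and 3.97 and 4.06 in Haspin-KO (adjusted p = 0.123 from edgeR).

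**Figure D4:**
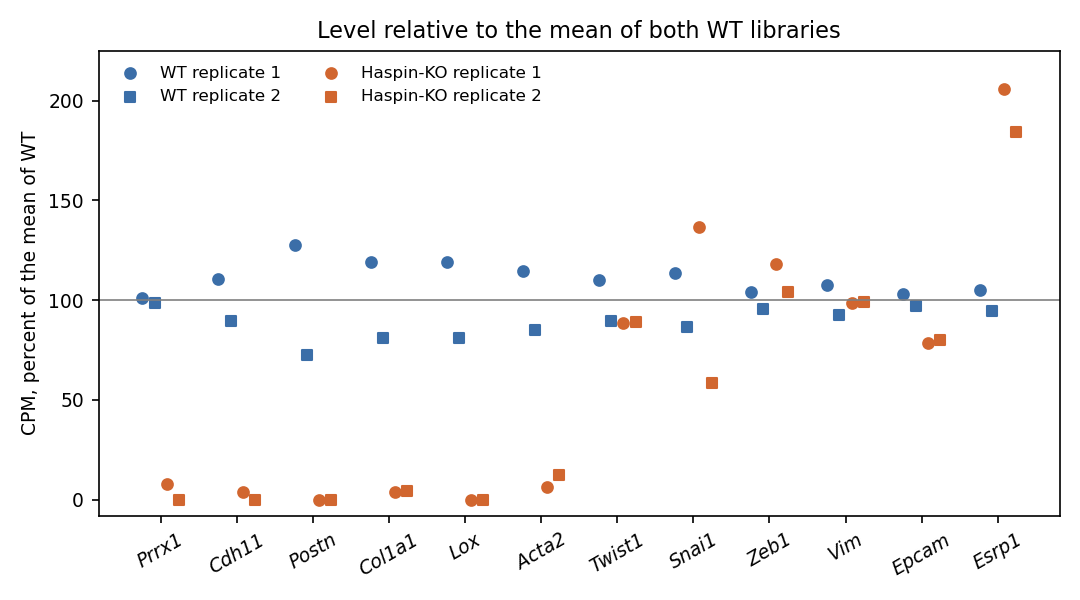
CPM in each library as a percentage of the mean of both WT libraries (vertical axis) for 12 genes (symbols as in the plot of levels, 1 point per library). Prrx1 lies at 7.70% and 0% in Haspin-KO, near Cdh11, Postn, Col1a1, Lox and Acta2, whereas Twist1 lies at 88.5% and 89.0%, Vim at 98.5% and 99.3%, and Esrp1 at 205.9% and 184.1%.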

How the data were processed

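RNA-seq of 2 WT and 2 Haspin-KO libraries was grouped by the sample titles. The authors trimmed reads with Cutadapt (1.9.1), mapped them to mm10 with HISAT2 (2.0.1) and deposited raw counts per gene. The submitters' processing notes also name HTSeq (0.6.1), and the strand setting is not given in the sources used here. The FPKM values that the authors deposited equalled counts over exonic length and library total in 100% of cases (tolerance 0.011).

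Counts were filtered (filterByExpr), scaled by TMM and tested by quasi-likelihood in edgeR (4.0.16, under R 4.3.3), with Benjamini-Hochberg adjustment. No block was used, as the study's methods state none. Standard errors are |log2 fold change| over the root of F, and 95% intervals use the t distribution. Alternatives were DESeq2 (1.42.0, the study's own tool), limma (3.58.1) on log2(FPKM + 0.1) and log2(FPKM + 1) where FPKM reached 0.5 in 2 libraries, other scalings and filters, no fold threshold, the replicate number as a block, and each library left out. Levels at or under 3 counts (0.137 to 0.210 CPM) were not read, a floor for counting error only. The fits were tested on simulated data.

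The text names the 10 genes, genes of the other lists that were called or had the smallest p (up to 2 per direction), and the 3 genes most like Prrx1. Others are marked as chosen after their values were seen, or are marker levels, and 1 called gene is not reported here by name. The members and lists were chosen with earlier results of these data known.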

Additional observations from a re-analysis of the deposited data

How the results depend on the processing

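Over all genes, 129 were called (51 higher, 78 lower). The count was 265 without a filter on low counts, 390 without a fold threshold, 407 with the replicate number as a block, and 0 in limma with either pseudocount (383 and 104 genes when p was left unadjusted), and it ranged from 60 to 266 with 1 library left out. Among the 10 genes, 0 were called by DESeq2, where Prrx1 had no adjusted p (1 gene when p was left unadjusted), and 0 by limma, where Prrx1 was under the minimum FPKM (0 genes when p was left unadjusted). With 1 library left out the number called ranged from 0 to 1.

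The replicate numbers are shared by the groups but no text says that they pair the libraries. The difference between replicates 1 and 2 had a correlation of r = 0.289 between the groups over 15580 genes, which are not independent. Under the block, Prrx1 had a log2 fold change of -4.56 and Epcam an adjusted p of 0.00239 at a log2 fold change of -0.33, under a fold of 2.

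Haspin, Pou5f1, Prrx2, Cdh1, Sparc, Cdh2, Pdgfrb and Thy1 were not run under the alternatives. Of the genes that were, those whose sign turned were not called. With 1 library left out, the log2 fold change ranged from -0.78 to 0.44 for Snai1, from -0.045 to 0.23 for Snai2, from -0.12 to 0.090 for Vim, from -1.05 to 0.19 for Foxc2, from -0.059 to 0.33 for Klf5, from -0.35 to 0.031 for Grhl3, from -0.042 to 0.082 for Fn1, from -0.097 to 0.29 for Sox2, from -0.65 to 0.86 for Pdgfra and from -0.19 to 0.65 for Foxd3. Without a filter Fn1 was at -0.0076. The causes were not tested. Low counts kept Twist2 from being tested and limit Prrx1, Zeb2, Esrp1 and Snai2.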
